A study of Mus musculus with 10 samples.

Results

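Prostaglandin genes were examined in fibroblasts of mouse pancreatic tumours that had been separated by the surface protein CD90. The set was chosen by gene symbol and holds 7 genes out of 48471 summed over transcripts: the cyclooxygenases Ptgs1 and Ptgs2, the terminal synthases Ptges and Ptgis, the prostaglandin E2 receptors Ptger2 and Ptger4, and the degrading enzyme Hpgd. All 7 were among the 15378 genes abundant enough to be tested.

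The 10 libraries came from myofibroblastic cancer-associated fibroblasts (myCAFs), the contractile and matrix-forming fibroblasts of a tumour's stroma, sorted into a CD90-negative and a CD90-positive fraction. Both fractions came from the same pancreatic ductal adenocarcinomas, which grew in C57BL/6J hosts after KPC T-LOH organoids were transplanted into the pancreas, so the organoids and the transplantation are shared by all libraries. Each fraction had 5 libraries, from 5 tumour pools whose titles name 4, 1, 2, 3 and 1 animals (pools 1 to 5). The titles thus name 11 animals where the design text counts 5 male mice, and n is given here as pools. The sources used here give neither the age of the hosts nor the markers, other than CD90, by which the myCAFs were sorted.

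Prostaglandins are lipid signals made from arachidonic acid. Phospholipases release the acid from membranes, a cyclooxygenase (COX-1 from Ptgs1, COX-2 from Ptgs2) converts it to prostaglandin H2, and a terminal synthase sets the product: prostaglandin E2 from Ptges, prostacyclin from Ptgis. Prostaglandin E2 acts through the receptors EP1 to EP4, of which EP2 (Ptger2) and EP4 (Ptger4) raise cyclic AMP and EP3 (Ptger3) mainly lowers it. The enzyme encoded by Hpgd inactivates prostaglandin E2. COX-1 is usually called the constitutive and COX-2 the inducible enzyme, and in pancreatic tumours both stroma and cancer cells are known as sources of prostaglandins.

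The promoters of 3 synthesis genes are shown because their genes did not share one outcome: Ptgs1 passed the test as lower in CD90-negative libraries, Ptges missed the threshold and Ptgs2 did not approach it. The RefSeq table (build GRCm38.p6) held 6 of the 7 members, each with 250 bases before and 50 after the start site, and the reads themselves were assigned with GRCm39 per the submitters' processing notes. Capitals mark matches, on either strand, to 5 motifs. The core of the cyclic AMP response element was searched as ACGTCA. The E-box, bound by many helix-loop-helix factors, was searched as CACGTG. The TATA box, which places the transcription start, was searched as TATAAA. The GC box, bound by Sp1-like factors, was searched as GGGCGG. The palindrome bound by C/EBP factors was searched as TTGCGCAA.
Ptgs2, chr1:150099781-150100080, plus strand: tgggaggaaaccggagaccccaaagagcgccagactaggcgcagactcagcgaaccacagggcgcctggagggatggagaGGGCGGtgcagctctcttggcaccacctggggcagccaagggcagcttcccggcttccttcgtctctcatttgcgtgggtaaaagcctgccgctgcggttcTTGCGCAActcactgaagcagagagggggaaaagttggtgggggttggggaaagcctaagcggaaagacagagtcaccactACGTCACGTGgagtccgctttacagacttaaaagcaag
Ptgs1, chr2:36230176-36230475, plus strand: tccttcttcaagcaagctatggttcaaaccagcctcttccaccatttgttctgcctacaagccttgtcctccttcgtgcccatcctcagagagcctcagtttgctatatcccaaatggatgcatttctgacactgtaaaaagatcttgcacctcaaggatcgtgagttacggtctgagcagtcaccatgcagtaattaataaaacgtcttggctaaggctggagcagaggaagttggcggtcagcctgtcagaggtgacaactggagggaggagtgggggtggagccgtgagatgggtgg
Ptges, chr2:30903248-30903547, minus strand: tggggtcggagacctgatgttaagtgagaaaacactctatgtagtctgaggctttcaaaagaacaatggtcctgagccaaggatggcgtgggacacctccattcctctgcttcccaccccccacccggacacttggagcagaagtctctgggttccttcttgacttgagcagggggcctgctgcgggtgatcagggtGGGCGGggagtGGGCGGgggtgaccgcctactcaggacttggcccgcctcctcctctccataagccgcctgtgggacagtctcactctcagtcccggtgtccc

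The Ptgs2 window held the C/EBP palindrome at -69 to -62 and a GC box at -170 to -165 from the RefSeq start site. It also held the cyclic AMP core at 13 to 18, which overlaps an E-box at 17 to 22. Among 32851 promoter windows of the same length in the table, the palindrome occurred in 0.183%, the cyclic AMP core in 7.51%, the E-box in 7.15%, the TATA box in 13.6% and the GC box in 35.7%. The Ptges window held a pair of GC boxes, at -53 to -48 and -42 to -37. None of the 5 motifs was found in the Ptgs1 window. These matches describe letters only, and binding was not measured.

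Total estimated counts ran from 33.3 to 47.7 M (M is 1e6) per library in the CD90-negative and from 11.7 to 38.2 M in the CD90-positive fraction, of which 3.71 to 19.8 M and 4.57 to 28.5 M lay on nuclear protein-coding genes. Mitochondrial rRNA took 59.3% ± 17.6 against 26.9% ± 12.8 of gene-assigned counts (SD, n = 5) and was higher in the CD90-negative library of 5 of 5 pools. An exact paired permutation test (two-sided, sign flips) gave p = 0.0625, the smallest that 5 pools allow. Thy1, which encodes CD90, averaged 8.47 ± 5.17 against 89.1 ± 29.5 CPM (SD, n = 5; CPM is each count relative to the library total after TMM scaling, times 1e6), and the fractions did not overlap. Its log2 fold was -3.50 ± 0.50 (SE; edgeR adjusted p = 0.0056).

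Of the 7 members, 2 fell in the CD90-negative fraction, Ptgs1 and Ptgis, and 0 rose. Over all 15378 genes, 12.9% were called in either direction, 7.05% as lower and 5.83% as higher. The 7 members had a median log2 fold of -1.21, against 0.04 over all genes tested. A call means an edgeR quasi-likelihood p below 0.05 after adjustment over all genes, with the tumour pool as a block, and every log2 fold is CD90-negative over CD90-positive. With DESeq2 in place of edgeR, 4 members were called lower (Ptges and Ptger2 besides the same pair) and 1 higher (Ptger4). DESeq2 also called more of all genes, 1814 lower and 1638 higher, against 1084 and 896 with edgeR. With mitochondrial rRNA added to the model, edgeR called 0 of the 15378 genes, so no call named here holds in that model. Thy1 itself was not called there (log2 fold -4.12, adjusted p = 0.751). The rRNA share was higher in the CD90-negative library of every pool. A call lost in that model is therefore not particular to any gene. The log2 folds there were -2.05 for Ptgs1, -0.51 for Ptgs2, -2.67 for Ptges and -2.47 for Ptgis. Those of Ptger2, Ptger4 and Hpgd were -0.92, 1.20 and -1.57. With a fit that ignored the pools, 1 member was called lower, Ptges, and 0 higher. Leaving out pools also changed the number of calls over all genes, from 1980 with all pools. It was 675, 1252, 2019, 1239 and 1544 without pool 1, 2, 3, 4 or 5, and 541 without pools 4 and 5.

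**Figure D1:**
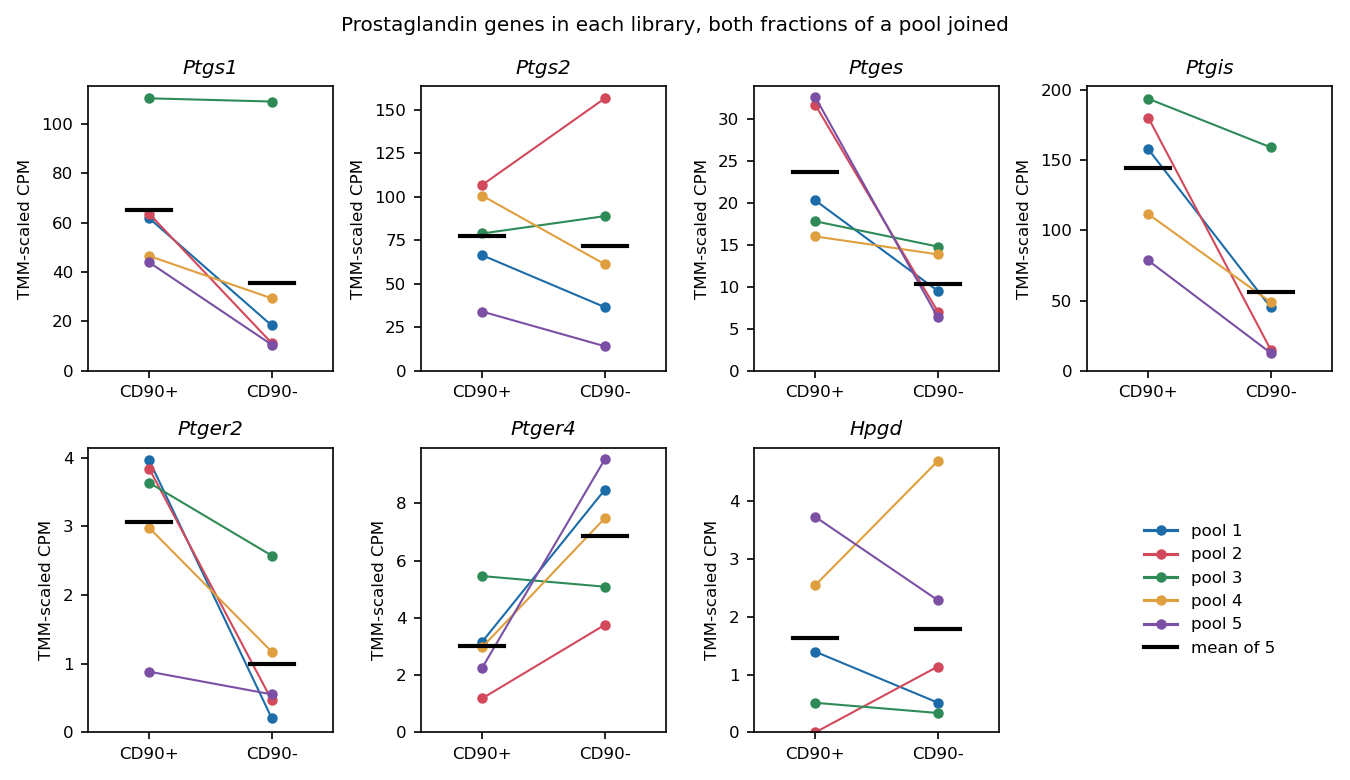
TMM-scaled CPM of the 7 genes (y axis, linear, from 0) in the CD90-positive and CD90-negative library of each pool; points joined by a line are the 2 fractions of 1 pool and black bars are means of 5 libraries. Ptgs1, Ptges, Ptgis and Ptger2 slope downward in 5 of 5 pools, Ptger4 upward in 4 of 5, and Ptgs2 and Hpgd in both directions.

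Ptgs1 (ENSMUSG00000047250, chromosome 2), encoding COX-1, stood at 61.8, 63.6, 110.3, 46.5 and 43.9 CPM in CD90-positive libraries of pools 1 to 5. In the CD90-negative libraries it stood at 18.4, 11.3, 109.0, 29.4 and 10.6 CPM. The CD90-negative library was the lower of each pair, but in pool 3 the pair differed by only 0.02 on the log2 scale and both libraries exceeded all others, so the groups overlapped. The means were 35.7 ± 41.7 and 65.2 ± 26.7 CPM (SD, n = 5), and the fitted log2 fold was -1.40 ± 0.36 (SE; adjusted p = 0.040), a 2.64-fold decrease. The call was lost without pool 1 (adjusted p = 0.148), pool 2 (0.0975) or pool 5 (0.103), and without pools 4 and 5 (0.159). It was also lost with limma-voom (0.0941), without the block for the pool (0.465) and with mitochondrial rRNA added to the model (0.751).

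Ptgs2 (ENSMUSG00000032487, chromosome 1), encoding COX-2, had 66.5, 106.9, 79.0, 100.7 and 34.1 CPM in the CD90-positive libraries. The CD90-negative libraries had 36.7, 156.6, 88.9, 61.3 and 14.2 CPM. The lowest and the highest value of the whole set were both CD90-negative, and the sign of the difference varied, with the CD90-negative library lower in pools 1, 4 and 5 and higher in pools 2 and 3. The means were 71.5 ± 55.1 and 77.4 ± 29.2 CPM (SD, n = 5). Its log2 fold of -0.42 (SE 0.26) did not pass (adjusted p = 0.355), nor did it under any alternative run, where adjusted p ranged from 0.128 to 0.930. In pool 2 the CD90-negative library had the highest Ptgs2 level of all 10 together with the second-lowest Ptgs1 level.

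Ptges (ENSMUSG00000050737, chromosome 2) encodes microsomal prostaglandin E synthase 1, the inducible terminal enzyme that works with COX-2. It had 20.3, 31.7, 17.8, 16.0 and 32.6 CPM in CD90-positive and 9.54, 7.07, 14.8, 13.9 and 6.39 CPM in CD90-negative libraries of pools 1 to 5. Every CD90-negative library lay below every CD90-positive one, which held for 4.61% of all genes tested. The log2 fold of -1.21 (SE 0.36, 10.3 ± 3.86 against 23.7 ± 7.88 CPM; SD, n = 5) missed the threshold, with an adjusted p of 0.0566. It passed under 7 of 18 alternatives, among them no block for the pool (0.0367), limma-voom (0.0302) and leaving out pool 3 (0.0321). Its adjusted p was 0.160 without pool 1, 0.163 without pool 2, 0.132 without pool 5, 0.152 without pools 4 and 5, 0.193 with an offset for transcript length and 0.751 with mitochondrial rRNA added to the model. On the scale per kilobase the groups overlapped, because the CD90-negative library of pool 4 reached 13.2 where 3 CD90-positive libraries had 7.52 to 9.28. In that library 26.4% of the Ptges reads were assigned to a short processed transcript.

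Ptgis (ENSMUSG00000017969, chromosome 2), encoding prostacyclin synthase, was the most abundant of the 7 per length. It had 157.8, 180.3, 193.7, 111.6 and 78.6 CPM in CD90-positive libraries. CD90-negative libraries had 45.2, 15.1, 159.1, 48.9 and 12.8 CPM, lower in each of the 5 pairs. Pool 3 again differed least, and its CD90-negative library lay above 3 CD90-positive libraries of other pools. The means were 56.2 ± 59.9 and 144.4 ± 48.2 CPM (SD, n = 5), and the fitted log2 fold was -1.89 ± 0.45 (SE; adjusted p = 0.0326), a 3.70-fold decrease. The call was lost without pool 1 (adjusted p = 0.1000) or pool 5 (0.0930), without pools 4 and 5 (0.178), with limma-voom (0.0970), without the block (0.235) and with mitochondrial rRNA added to the model (0.752).

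**Figure D2:**
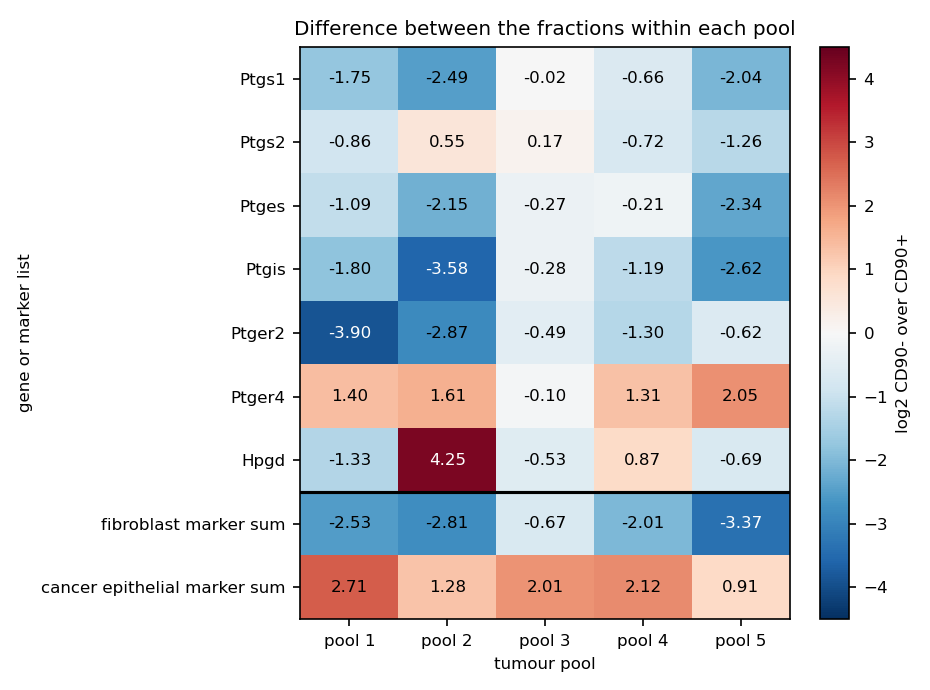
Log2 difference between the CD90-negative and CD90-positive library within each tumour pool (columns) for the 7 genes and, below the line, for the summed CPM of 10 fibroblast and 12 cancer epithelial markers; blue is lower and red higher in CD90-negative. Pool 3 has the smallest differences for Ptgs1 (-0.02), Ptger4 (-0.10) and the fibroblast sum (-0.67), and the Hpgd value of 4.25 in pool 2 rests on 0 reads in the CD90-positive library and on the prior count of 2.

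Both prostaglandin E2 receptors that raise cyclic AMP were scarce, and neither passed. Ptger2 (ENSMUSG00000037759, chromosome 14) had 3.96, 3.84, 3.63, 2.98 and 0.884 CPM in CD90-positive and 0.207, 0.469, 2.57, 1.18 and 0.554 CPM in CD90-negative libraries. It was lower in each of the 5 pairs, and the groups overlapped through the CD90-positive library of pool 5. The log2 fold was -1.89 ± 0.79 (SE; adjusted p = 0.157), based on 6 to 241 reads per library.

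Ptger4 (ENSMUSG00000039942, chromosome 15) was the one member with a positive log2 fold that neared the threshold, at 1.28 ± 0.42 (SE; adjusted p = 0.0769). CD90-positive libraries had 3.17, 1.19, 5.46, 2.98 and 2.26 CPM. CD90-negative libraries had 8.47, 3.76, 5.09, 7.48 and 9.53 CPM, higher in every pair except that of pool 3, so the groups overlapped. Ptger4 passed with DESeq2 (adjusted p = 0.0143) and without pool 3 (0.0435), and had adjusted p values of up to 0.840 under the other alternatives.

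The balance between the 2 receptors was compared within libraries, where it does not depend on scaling between libraries. Per transcript length, the log2 ratio of Ptger4 to Ptger2 was 5.55, 2.51, 1.09, 2.17 and 3.68 in CD90-negative libraries of pools 1 to 5. It was -0.20, -1.70, 0.62, 0.10 and 0.75 in CD90-positive libraries. Every CD90-negative library thus had the higher ratio, by the least in pool 3. Ptger2 had only 6, 14, 11 and 15 reads in CD90-negative libraries 1, 2, 4 and 5, and 9 in CD90-positive library 5. The ratio of 5.55 therefore rests on 6 Ptger2 reads. How often other gene pairs separate the fractions in this way was not computed. The ratio was not tested, since it combines 2 members whose folds were already known to have opposite signs. The remaining within-library ratios overlapped between the fractions: Ptgs2 to Ptgs1 ran from -1.51 to 2.03 in CD90-negative and from -1.72 to -0.04 in CD90-positive libraries.

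Hpgd (ENSMUSG00000031613, chromosome 8) encodes 15-hydroxyprostaglandin dehydrogenase, which starts the breakdown of prostaglandin E2. It had 1.40, 0, 0.513, 2.55 and 3.73 CPM in CD90-positive and 0.516, 1.14, 0.337, 4.70 and 2.29 CPM in CD90-negative libraries. The fractions overlapped fully, and the sign differed among pools. The 0 in pool 2 allows up to 0.0743 CPM (3 reads, counting error only). The log2 fold was 0.29 ± 1.14 (SE; adjusted p = 0.903), and a difference of the size of this error was not detectable at 0 to 83 reads per library.

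**Figure D3:**
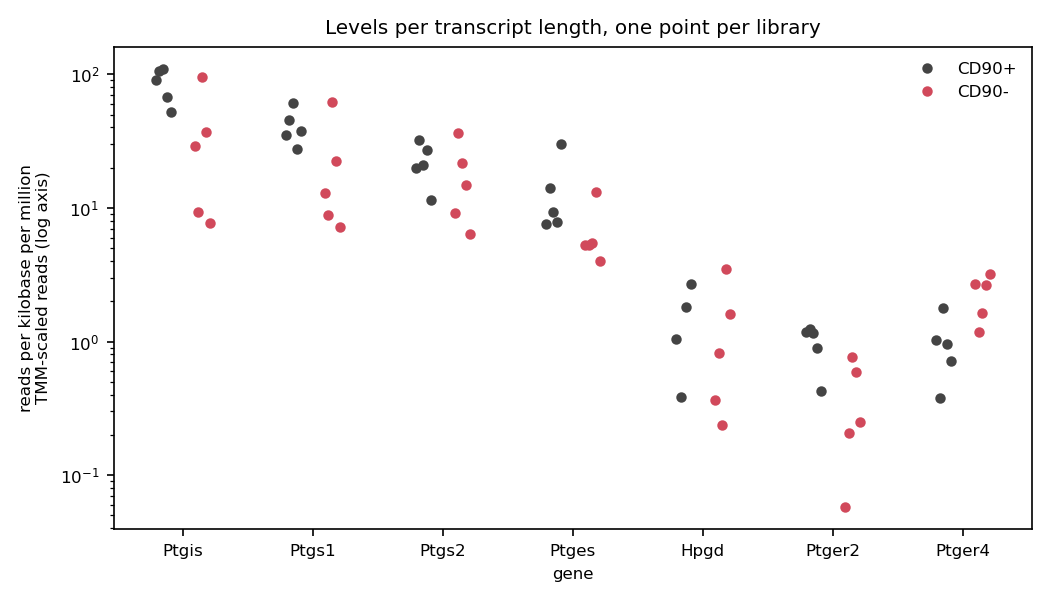
TMM-scaled CPM per kilobase of effective transcript length (log axis) for the 7 genes, ordered by their CD90-positive mean; each point is 1 library, dark for CD90-positive and red for CD90-negative. The 4 synthesis genes (lowest library 4.03, Ptges) lie above both receptors and Hpgd (highest library 3.48, Hpgd), and the CD90-positive library of pool 2, with 0 Hpgd reads, is left out of that column because a log axis has no 0.

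Per length, the 7 members fell into an abundant synthesis group and a scarce receptor and degradation group, a split that did not extend to other prostanoid genes. In CD90-positive libraries the mean levels, in TMM-scaled CPM per kilobase of effective transcript length, were 85.2 ± 24.8 for Ptgis, 41.2 ± 12.6 for Ptgs1, 22.3 ± 7.91 for Ptgs2 and 13.8 ± 9.55 for Ptges (SD, n = 5). Hpgd (1.19 ± 1.09), Ptger2 (0.975 ± 0.334) and Ptger4 (0.970 ± 0.517) followed. Ptgis exceeded Ptgs1 and Ptgs1 exceeded Ptgs2 in 5 of 5 libraries, Ptgs2 exceeded Ptges in 4 of 5, and the 3 scarce genes did not differ beyond their spread. In CD90-negative libraries the order of the 4 synthesis genes was the same, at 35.6 ± 35.7, 22.7 ± 22.8, 17.6 ± 11.9 and 6.65 ± 3.71 (SD, n = 5). Ptgis exceeded Ptgs1 in 5 of 5 of these libraries, although the SD of each was as large as its mean. Ptger4 came next at 2.27 ± 0.832, above Hpgd (1.31 ± 1.33) in 4 of 5 libraries, and Ptger2 was lowest at 0.373 ± 0.291 (SD, n = 5). Outside the 7 members, the receptor gene Ptger3 averaged 22.4 and the synthesis gene Ptges2 2.06 in CD90-positive libraries.

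The reads of several members were divided over transcripts in unlike ways, which Salmon's model decides and which sparse reads make uncertain. For Ptgs1 the main protein-coding transcript took 77.1% to 89.3% of the reads in 9 libraries and 0% in the CD90-negative library of pool 2, where 81.7% went to a processed transcript. For Ptgis a longer coding transcript took 45.7% to 62.7% in 8 libraries, but 9.80% in CD90-negative library 2 and 28.7% in CD90-positive library 5. For Ptger2 all reads of CD90-negative libraries 2, 4 and 5 and of CD90-positive library 5 (9 to 15 reads each) were assigned to a retained-intron transcript. The protein-coding transcript of Ptger2 took 100% of the 6 reads in CD90-negative library 1, 89.4% in library 3 and 79.4% to 93.6% in the other CD90-positive libraries. Ptgs2 had 99.6% of its reads on 1 coding transcript over all libraries, and Hpgd has a single transcript in the files.

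The wider prostanoid pathway was a list of 45 genes, members included, of which 35 were tested; 3 rose and 3 fell. Beside these counts, 5.83% of all genes tested rose and 7.05% fell. The median log2 fold of the list was -0.34, against 0.04 over all genes, and without the 7 members 3 of 28 tested genes rose and 1 fell. The 10 that were too scarce to test had at most 11 reads in any library. They included both prostaglandin D synthases, Ptgds and Hpgds, and the D2 receptors Ptgdr and Ptgdr2.

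The gene with the smallest p among the wider list was Ptger3, which encodes EP3 and was the most abundant prostaglandin E2 receptor per length. It had 52.7, 73.6, 55.6, 43.0 and 28.7 CPM in CD90-positive and 10.4, 17.4, 44.4, 12.9 and 6.39 CPM in CD90-negative libraries. It was lower in 5 of 5 pools, least in pool 3, whose CD90-negative library overlapped the CD90-positive range. The log2 fold was -1.74 ± 0.29 (SE; adjusted p = 0.0062), and it was not called without the block (0.0884), when pools 4 and 5 were left out (0.0966) or with mitochondrial rRNA added to the model (0.760). Ptger1, for EP1, stood at a log2 fold of -1.30 ± 0.68 (SE; adjusted p = 0.259), named here after its values were seen. Of the 8 tested genes of the receptor list, which includes Ptgfrn, 1 fell and 0 rose, and 7 had a negative log2 fold, Ptger4 being the exception. Over all genes tested, 7383 of 15378 had a negative log2 fold, and 7.05% were called lower. Ptger1, Ptgfr, Ptgir and Tbxa2r, the last 3 also named after their values were seen, turned positive with mitochondrial rRNA added to the model, without passing. These genes were scarce, with at most 237, 91.7, 73 and 148 reads in a library, in that order. Ptgfrn, a partner protein of the prostaglandin F receptor, had the highest mean per length of these 8 genes over the 10 libraries but did not pass (log2 fold -0.34, adjusted p = 0.134).

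Of the 3 genes that rose, Akr1b8 was listed under synthesis, as were Ptgs1 and Ptgis, which fell. Pla2g6 was listed under arachidonate release and Abcc4 under transport and degradation. Abcc4, a membrane pump that exports prostaglandin E2, had 62.8, 47.6, 21.7, 38.6 and 64.1 CPM in CD90-negative and 11.8, 9.19, 7.03, 10.5 and 70.9 CPM in CD90-positive libraries. It was higher in 4 of 5 pools and lower in pool 5, whose CD90-positive library was the highest of all 10 (log2 fold 1.66 ± 0.37, SE; adjusted p = 0.0227). Pla2g6, a calcium-independent phospholipase A2, averaged 16.5 ± 4.37 against 8.35 ± 2.11 CPM (SD, n = 5), a fitted log2 difference of 0.98 ± 0.22 (SE; adjusted p = 0.0166). Akr1b8, an aldo-keto reductase, averaged 39.9 ± 11.1 against 23.8 ± 3.62 CPM (SD, n = 5), a fitted log2 difference of 0.71 ± 0.18 (SE; adjusted p = 0.0283). Both were higher in 5 of 5 pools. Leaving out pool 1 ended all 3 of these calls (adjusted p 0.0923, 0.0784 and 0.139), with log2 folds of 1.455, 0.973 and 0.634. Over all genes, calls fell from 1980 to 675 without that pool. Abcc4 was also lost without pool 2 (0.0723), 3 (0.0537) or 4 (0.0673) and without the block (0.352), Pla2g6 without pool 2 (0.0604), without pools 4 and 5 (0.0859) and with the length offset (0.254), and Akr1b8 without pool 4 (0.124) or 5 (0.0816), without pools 4 and 5 (0.277), without the block (0.0584) and with the length offset (0.0691). None of the 3 was called with mitochondrial rRNA added to the model. The log2 folds there were 0.05 for Abcc4, 0.97 for Pla2g6 and 0.53 for Akr1b8.

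**Figure D4:**
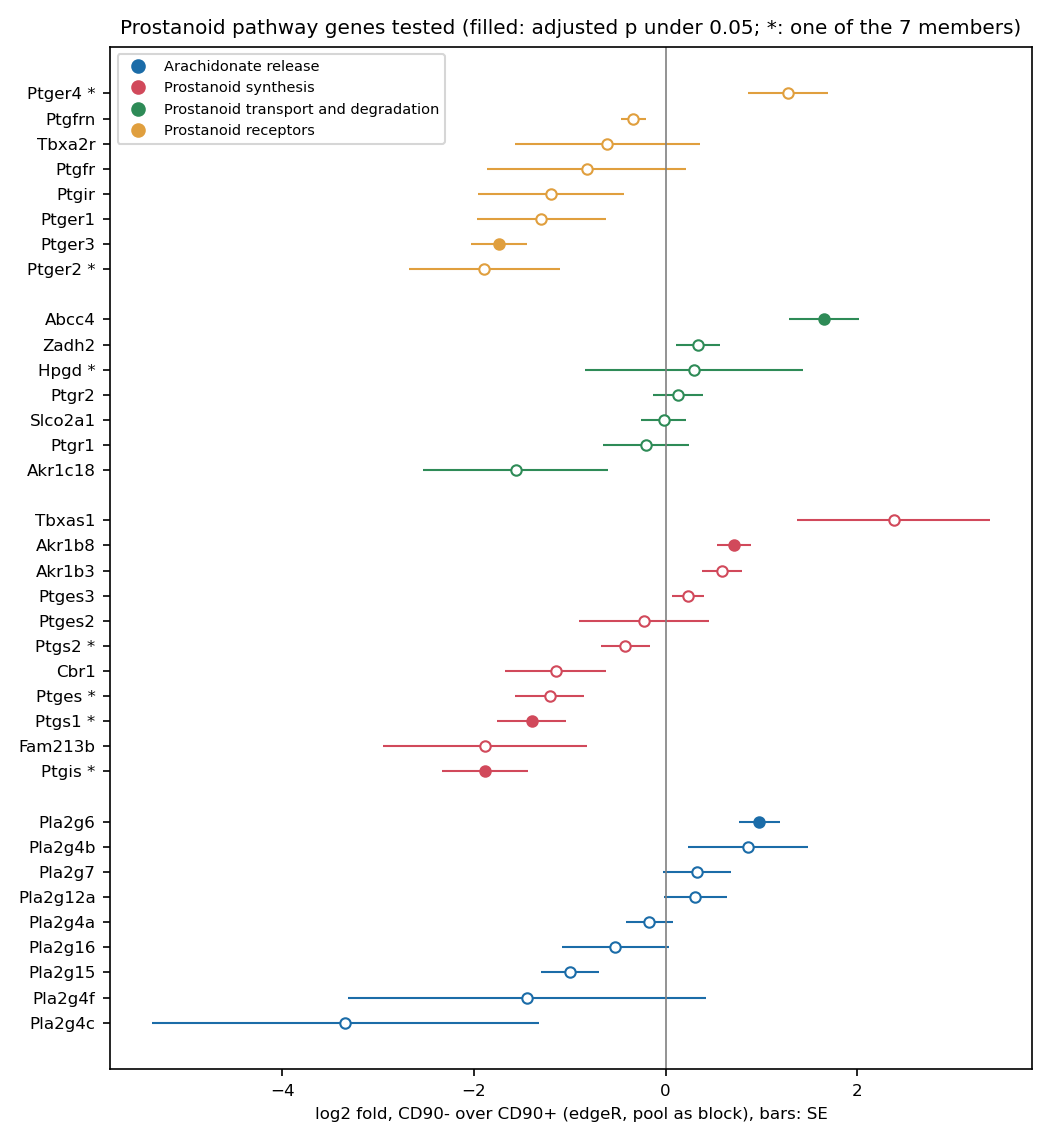
Log2 fold, CD90-negative over CD90-positive (x axis, edgeR with the pool as a block; bars are standard errors), of the 35 tested prostanoid pathway genes grouped by role (colour); filled points passed at an adjusted p below 0.05 and asterisks mark the 7 members. The 3 filled points left of 0 are Ptgis, Ptgs1 and Ptger3, and the 3 right of 0 are Abcc4, Pla2g6 and Akr1b8.

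Among the pathway genes with the highest levels per length that did not pass, Ptges3, a cytosolic co-chaperone also called cytosolic prostaglandin E synthase, differed on the log2 scale by 0.23 ± 0.16 (SE; adjusted p = 0.422). Pla2g4a, the cytosolic phospholipase A2 that feeds cyclooxygenases, had -0.17 ± 0.24 (SE; adjusted p = 0.718), and Pla2g12a had 0.31. Ptgr2 and Zadh2, reductases of prostaglandin breakdown, had 0.13 and 0.34. Of the 14 genes of the lipoxygenase and leukotriene branch, only 3 were tested, and 0 passed: Lta4h had a log2 fold of 0.06, Alox15 of -0.72 and Ltb4r2 of 0.95, with adjusted p values of 0.925, 0.782 and 0.811. The other 11 had at most 69 reads in any library, and Cysltr2 had 0 in all.

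Genes below EP2 and EP4 were described as 2 lists. Of 26 tested signalling genes 4 fell and 1 rose, with a median log2 fold of -0.29 against 0.04 over all genes. The shares over all genes tested were 7.05% lower and 5.83% higher. The adenylate cyclases Adcy7 (-2.53 ± 0.45, SE; adjusted p = 0.0102) and Adcy5 (-1.93 ± 0.36, SE; adjusted p = 0.0103) and the protein kinase A regulatory subunit Prkar1a (-0.71 ± 0.12, SE; adjusted p = 0.0066) fell, as did the phosphodiesterase Pde4b (-1.79), while Pde4d rose (0.73), the last 2 named after their values were seen. Of 11 cyclic AMP response genes, 4 fell and 1 rose (median -0.42). Nr4a1, an orphan nuclear receptor induced by many stimuli, averaged 153.1 ± 55.8 against 301.4 ± 46.1 CPM (SD, n = 5), a fitted log2 difference of -1.04 ± 0.21 (SE; adjusted p = 0.0113), and the kinase Sik1 had -1.02 ± 0.18 (SE; adjusted p = 0.0064). The ligand Areg rose (2.81 ± 0.39, SE; adjusted p = 0.0038), but with mitochondrial rRNA added to the model its log2 fold was 0.32 (adjusted p = 0.924). Nr4a2 (-0.90) and Dusp1 (-0.75), also lower, are named after their values were seen. Leaving out pool 1 ended the calls of Adcy7 (adjusted p = 0.0529), Adcy5 (0.053), Pde4b (0.0915), Pde4d (0.1015), Nr4a1 (0.0677), Nr4a2 (0.1000) and Dusp1 (0.106). Pde4d, Nr4a2 and Dusp1 were also lost without pool 2 (0.0642, 0.0517 and 0.0786) or pool 5 (0.0782, 0.0524 and 0.0640), and Pde4d without pool 4 (0.0746). Without the block for the pool, Prkar1a (0.0842), Adcy7 (0.0717), Pde4b (0.0891), Pde4d (0.0962), Areg (0.112), Nr4a2 (0.155) and Dusp1 (0.188) were not called. Without pools 4 and 5, Areg alone of these 10 genes was called. Prkar1a (0.2895) and Pde4d (0.0522) were lost with the length offset, and Adcy7 with limma-voom (0.0555). Many of these genes respond to other pathways too, and cyclic AMP was not measured.

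Of 14 genes that induce Ptgs2 or regulate its mRNA, 6 fell and 1 rose (median -0.35). Over all genes tested, 7.05% fell and 5.83% rose. The transcription factor Cebpb averaged 116.8 ± 37.0 against 242.7 ± 25.5 CPM (SD, n = 5), a fitted log2 difference of -1.11 ± 0.19 (SE; adjusted p = 0.0062). The receptors Tnfrsf1a (-0.90 ± 0.18, SE; adjusted p = 0.0117) and Il1r1 (-1.30 ± 0.28, SE; adjusted p = 0.0191) were lower as well. The gene that rose was Il1a, encoding interleukin-1 alpha (log2 fold 2.73, SE 0.71, adjusted p = 0.0331; 3.72 ± 1.91 against 0.585 ± 0.400 CPM; SD, n = 5), named after its values were seen. Without pool 1, Tnfrsf1a (0.0677), Il1r1 (0.0792) and Il1a (0.148) were not called. Il1a was also lost without pool 3 (0.0639), 4 (0.0805) or 5 (0.0616) and with the length offset (0.0684), Il1r1 without pool 5 (0.0573), and Tnfrsf1a (0.118) and Il1r1 (0.4785) without the block. None of these 4 genes was called without pools 4 and 5. In the same libraries Ptgs2 did not pass.

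Fibroblast and cancer epithelial markers moved with the groups. For scale, 7.05% of all genes tested fell and 5.83% rose. The 10 fibroblast markers summed to between 4061 and 20470 CPM in CD90-negative and between 32460 and 54050 CPM in CD90-positive libraries, and 9 of 10 fell (median log2 fold -2.26). The 12 cancer epithelial markers summed to 745 to 3159 against 184.6 to 1685 CPM, and 9 of 12 rose (median 2.12), with none at 0. By pool, the log2 ratio of the fibroblast sum was -2.53, -2.81, -0.67, -2.01 and -3.37, beside -1.75, -2.49, -0.02, -0.66 and -2.04 for Ptgs1 and -1.80, -3.58, -0.28, -1.19 and -2.62 for Ptgis. The 3 collagen genes Col1a1, Col1a2 and Col3a1 made up 97.1% to 99.1% of that sum in every library. Pdgfra, a receptor in the same list, differed by -2.08, -3.30, -0.51, -0.91 and -3.48 and is named after its values were seen. In sorted bulk libraries, fewer cells of a type and less RNA per cell cannot be told apart, and the part of the cell mixture in any of these results was not tested.

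Markers of other cells that can make prostanoids were counted as well. The 12 macrophage markers summed to 24.7 to 61.2 CPM in CD90-negative and 10.7 to 21.6 CPM in CD90-positive libraries, and 1 of 9 tested rose. All 9 had a positive log2 fold (median 1.64), and the sum was higher in 5 of 5 pools. The 8 mast cell markers summed to 3.59 to 72.1 against 10.4 to 66.9 CPM. Hdc made up 71.2 of the 72.1 CPM in CD90-negative library 3, and Cpa3 and Fcer1a had 0 reads in all libraries. The 8 tuft cell markers summed to 24.9 to 101.4 against 38.3 to 66.9 CPM, 1 of 3 tested rose, and Il25 and Gnat3 had 0 reads in all libraries. The 5 platelet markers summed to 2.78 to 8.87 against 4.57 to 9.04 CPM. The 9 endothelial markers summed to 35.6 to 274.9 against 27.1 to 37.5 CPM, with 3 of 8 tested higher (median log2 fold 2.60). The largest endothelial sum was CD90-negative library 2, the library with the highest Ptgs2. Of 9 pericyte and smooth muscle markers 8 were tested, and 1 fell and 0 rose (median log2 fold -1.78). Their sums were 23.4 to 445.7 against 127.3 to 399 CPM, again highest in CD90-negative library 2. Of 7 mesothelial markers 1 rose and 0 fell (155.5 to 294.9 against 204.1 to 321.5 CPM). The other 6 had a negative log2 fold without being called, and the median of the 7 was -1.63. The 6 neutrophil markers summed to at most 5.08 CPM. The part of these cells in the results was not tested.

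The genes with the most similar profile over the 10 libraries were ranked by Pearson correlation of log2 CPM among the 6804 genes whose log2 CPM averaged 3 or more. These are descriptions, since all points share the 2 fractions and their depth. For Ptgis they were Tgfbr3 (r = 0.995), a co-receptor for TGF-beta, Ank2 (0.986) and Mgp (0.982), an inhibitor of calcification. For Ptgs1 they were Hdc (0.980), the histamine-forming enzyme, Ifi204 (0.978) and Txndc5 (0.975). Ptges was most like Cope (0.971), Maf (0.954) and Ip6k1 (0.954), and Ptgs2 most like Fam214a (0.952), Eno1b (0.949) and Bcl6 (0.944). Ptger2 was most like Pim1 (0.961), Cxcl1 (0.960) and Mrpl48 (0.954), Ptger4 most like Lmbrd2 (0.942), Uqcrh (0.941) and Erlin2 (0.932), and Hpgd most like Arpin (0.950), Ndel1 (0.873) and Plekhg5 (0.865). Hdc was 71.2 CPM in CD90-negative library 3 and 2.85 to 9.08 CPM in the other CD90-negative libraries, the same split as for Ptgs1 and Ptgis.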

How the data were processed

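RNA-seq was measured in 10 libraries (5 pools, 2 fractions). The authors deposited estimated counts per transcript, with effective lengths and TPM; the deposited TPM were not used. The submitters' processing notes name Salmon 1.9.0. Per the labels' protocols, RNA input was 0.1 to 1.2 ng with an integrity number of 3.1 to 8.7, and cDNA was amplified by 10 or 5 PCR cycles according to input; which library had which is not given. No molecular identifiers are mentioned, so PCR copies cannot be told from molecules. Transcripts were matched without version to GENCODE M21 (133666 of 144584, 92.4%; 3.63% to 12.1% of counts per library unmatched), summed per gene and rounded. edgeR 4.0.16 in R 4.3.3 (filterByExpr, TMM, robust quasi-likelihood fit, Benjamini-Hochberg over all genes) was run with the pool as a block, because both fractions of a pool carry the same animal numbers; deviations of paired libraries correlated by 0.057, 0.004, 0.461, 0.028 and 0.188 in pools 1 to 5. SEs follow from the F statistic. Code was tested on simulated data. Members, gene lists and settings were chosen with earlier results of these data known. Genes were named by a rule: the 7 members, Thy1, pathway genes called, up to 2 abundant others per pathway list, up to 3 with the smallest p in other lists, and the 3 most similar profiles per member. Any gene named outside this rule, including untested genes and markers at 0 reads, was chosen after its values were seen. Alternatives used limma 3.58.1 and DESeq2 1.42.0, other scalings and filters, and pools left out.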

Additional observations from a re-analysis of the deposited data

Results flagged for a closer look

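Ptgs1 in the CD90-negative library of pool 3 stood at 109.0 CPM, far from the other 4 libraries of its group, which lay between 10.6 and 29.4 CPM, with a gap of 0.809 of the group's range (critical value 0.71 for 5 samples). Ptgis in the same library stood at 159.1 CPM, against 12.8 to 48.9 CPM in the other 4, with a gap of 0.753. Among 14 groups examined, 2 passed this value, where chance gives about 1 in 20; both come from 1 library and are not independent. On log2 CPM, a scale added after seeing the data, the gaps were 0.563 for Ptgs1 and 0.468 for Ptgis, under the critical value, so both depend on the linear scale. On that scale 1 group passed, through Ptger2 in CD90-positive library 5 (0.806, 9 reads). Without pool 3, the log2 folds were -1.75 for Ptgs1 (adjusted p = 0.0047) and -2.29 for Ptgis (adjusted p = 0.0095).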

How the results depend on the processing

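Of the 7 members, 0 were called higher and 2 lower. One was called higher with DESeq2, and 0 to 1 when each pool was left out. Members called lower numbered 1 without the replicate block, 4 with DESeq2, 1 with limma-voom, and 0 with mitochondrial rRNA added to the model, without pools 4 and 5 or at a threshold of 0.01. They numbered 0 to 3 when each pool was left out. Of the wider pathway, 3 genes were called higher and 3 lower. Those called higher numbered 1 without the replicate block, 5 with DESeq2, 1 with the length offset, 0 with that term, 1 without pools 4 and 5 and 0 at 0.01, and 0 to 4 with each pool left out; those called lower numbered 1, 7, 3, 0, 0 and 1 in the same order, and 1 to 4 with each pool left out. With that term, edgeR called 0 of 15378 genes, and 882 had an unadjusted p under 0.05. The cause of these losses was not tested. Without the block 965 genes were called in all, against 1980 with it. DESeq2, with the block, called 3452. No member's log2 fold changed sign in any alternative except that of Hpgd, which was -0.46 without pool 2 and -1.57 with that term. Depth limits Hpgd and Ptger2 most.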
